A study of Homo sapiens with 12 samples.

Results

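Autotaxin, the lysophosphatidic acid (LPA) receptors and the lipid phosphate phosphatases were described here in HepG2 and BE(2)-C cells after knockdown of IGF2BP1. The members were the 10 genes ENPP2, LPAR1, LPAR2, LPAR3, LPAR4, LPAR5, LPAR6, PLPP1, PLPP2 and PLPP3, out of 58174 genes in the table of each cell line. They were chosen because ENPP2, which encodes autotaxin, was higher after knockdown in BE(2)-C and lower in HepG2. ENPP2 was thus selected on the values of these contrasts, and its values are given as a description with no test. The other 9 genes came with it as its pathway.

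The study asked which RNAs depend on IGF2BP1, an RNA-binding protein, in tumor-derived cells. HepG2 is an established hepatoblastoma line and was grown in DMEM with serum, while BE(2)-C is an established line of neuroblastoma origin and was grown in a mixture of EMEM and DMEM/F12 with serum. Cells of each line were transfected either with control siRNA (siC) or with a pool of siRNAs against IGF2BP1 (siI1), at a higher siRNA concentration in BE(2)-C than in HepG2, and RNA was taken after 72 h. Poly-A RNA was sequenced as strand-specific libraries, with 3 libraries in each of the 4 groups that the study's methods call biological replicates, and between 12852988 and 15721210 reads per library fell on genes. Each tumor type was represented by a single line.

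LPA is a small lipid that acts outside cells as a signal. Autotaxin is a secreted enzyme that makes LPA from lysophosphatidylcholine, the LPA receptors are G protein-coupled receptors on the cell surface, and the lipid phosphate phosphatases remove the phosphate that the receptors need. Autotaxin is known for its part in liver fibrosis and in the movement of tumor cells, and LPA signalling for its part in the developing nervous system.

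Levels are FPKM, fragments scaled to gene length and library size, which allows a comparison of levels between genes. The tables of both lines were normalized separately, so their levels are set side by side with no test. Differences are given as log2 fold changes of siI1 over siC on log2(FPKM + 0.1), with the standard error (SE). P-values come from limma, a model fitted across all genes, and were adjusted by the Benjamini-Hochberg method over all genes tested, and a gene was called at an adjusted p below 0.05. With 3 libraries in each group, the smallest two-sided p of an exact permutation test is 0.1. Genes were tested in a line when their FPKM was at least 0.1 in at least 3 of its 6 libraries.

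The target of the siRNAs fell in both lines. In HepG2, IGF2BP1 (chr17:48997385-49056145, plus strand) stood at 48.6, 46.6 and 50.8 FPKM in the siC libraries and at 12.6, 10.7 and 10.7 FPKM in the siI1 libraries. Its BE(2)-C levels were 21.3, 20.6 and 21.6 FPKM with siC and at 4.85, 4.74 and 4.87 FPKM with siI1. All siI1 libraries lay below all siC libraries of their line. The log2 fold changes were -2.10 in HepG2 (SE 0.08, limma adjusted p 7.8e-06) and -2.11 in BE(2)-C (SE 0.05, limma adjusted p 1.5e-05). The difference between them was -0.02 (SE 0.09, limma adjusted p 0.91). In bulk samples, fewer cells of a type and less RNA per cell cannot be told apart.

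The lines carried the markers of their labels. All 10 hepatocyte genes had an FPKM of at least 1 in every HepG2 library, with ALB as the most abundant, and none of them reached that level in BE(2)-C. Their summed level was 7803 to 7874 FPKM in the siC libraries of HepG2 and 12920 to 14700 FPKM in the siI1 libraries, and limma called 6 of the 10 higher and 2 lower (5 to 6 and 2 to 4 over the other settings). All 11 neuroblastoma genes had an FPKM of at least 1 in every BE(2)-C library, with MYCN as the most abundant, and none did in HepG2. Their summed level in BE(2)-C was 3670 to 3895 FPKM with siC and 3953 to 4066 FPKM with siI1, and limma called 3 of the 11 higher and 5 lower. Over all genes tested, limma called 21.9% higher and 23.0% lower in HepG2, and 13.3% and 14.8% in BE(2)-C. Within each line, libraries correlated more closely with their own group (mean r across genes 0.963 to 0.970) than with the other group (0.923 to 0.957).

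ENPP2 (ENSG00000136960) makes the LPA that the receptors bind, and it was the member on which the choice rested. In HepG2, ENPP2 stood at 0.345, 0.294 and 0.373 FPKM in the siC libraries and at 0.110, 0.0919 and 0.0778 FPKM in the siI1 libraries. These levels rested on 27 to 37 reads per siC library and 7 to 10 reads per siI1 library, and the 3 siI1 libraries lay below the 3 siC libraries. BE(2)-C held ENPP2 at 15.8, 14.7 and 15.2 FPKM with siC and at 39.0, 37.8 and 38.3 FPKM with siI1. Here, 1265 to 1522 and 3578 to 4055 reads per library lay behind the levels, and the 3 siI1 libraries lay above the 3 siC libraries.

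As a description with no test, mean ENPP2 was 3.62 times lower with siI1 in HepG2 (log2 fold change -1.18, SE 0.27) and 2.52 times higher in BE(2)-C (log2 fold change 1.33, SE 0.04). At the low level of HepG2, the added 0.1 FPKM made the log2 fold change smaller than the ratio of the means. The change in BE(2)-C minus that in HepG2 was 2.51 (SE 0.14). The SE of such differences comes from the fit over all 12 libraries, and here it is smaller than the SE of HepG2 alone. Under the other settings the difference was 1.57 to 3.14, and the change itself was -1.81 to -0.29 in HepG2 and 1.28 to 1.37 in BE(2)-C. ENPP2 passed the filter in HepG2 through 3 siC libraries and 1 siI1 library. The levels put HepG2 with siI1 lowest, then HepG2 with siC, BE(2)-C with siC and BE(2)-C with siI1, and no neighbours in this order overlapped, although the step between the lines crosses separately normalized tables.

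ENPP2 lies at chr8:119557086-119673453 on the minus strand (GRCh38, GENCODE v44), and no other protein-coding gene overlaps it. Its neighbour at 57.3 kb, TAF2, fell in HepG2 from a mean of 5.50 to 3.67 FPKM (log2 fold change -0.58, SE 0.12, limma adjusted p 0.0067). TAF2 in BE(2)-C was at 5.06 FPKM with siC and 5.48 FPKM with siI1 (log2 fold change 0.11, SE 0.07, limma adjusted p 0.27). CCN3 on the other side, at 132.7 kb, had mean levels between 0.0176 and 0.163 FPKM in the 4 groups and was not tested.

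**Figure D1:**
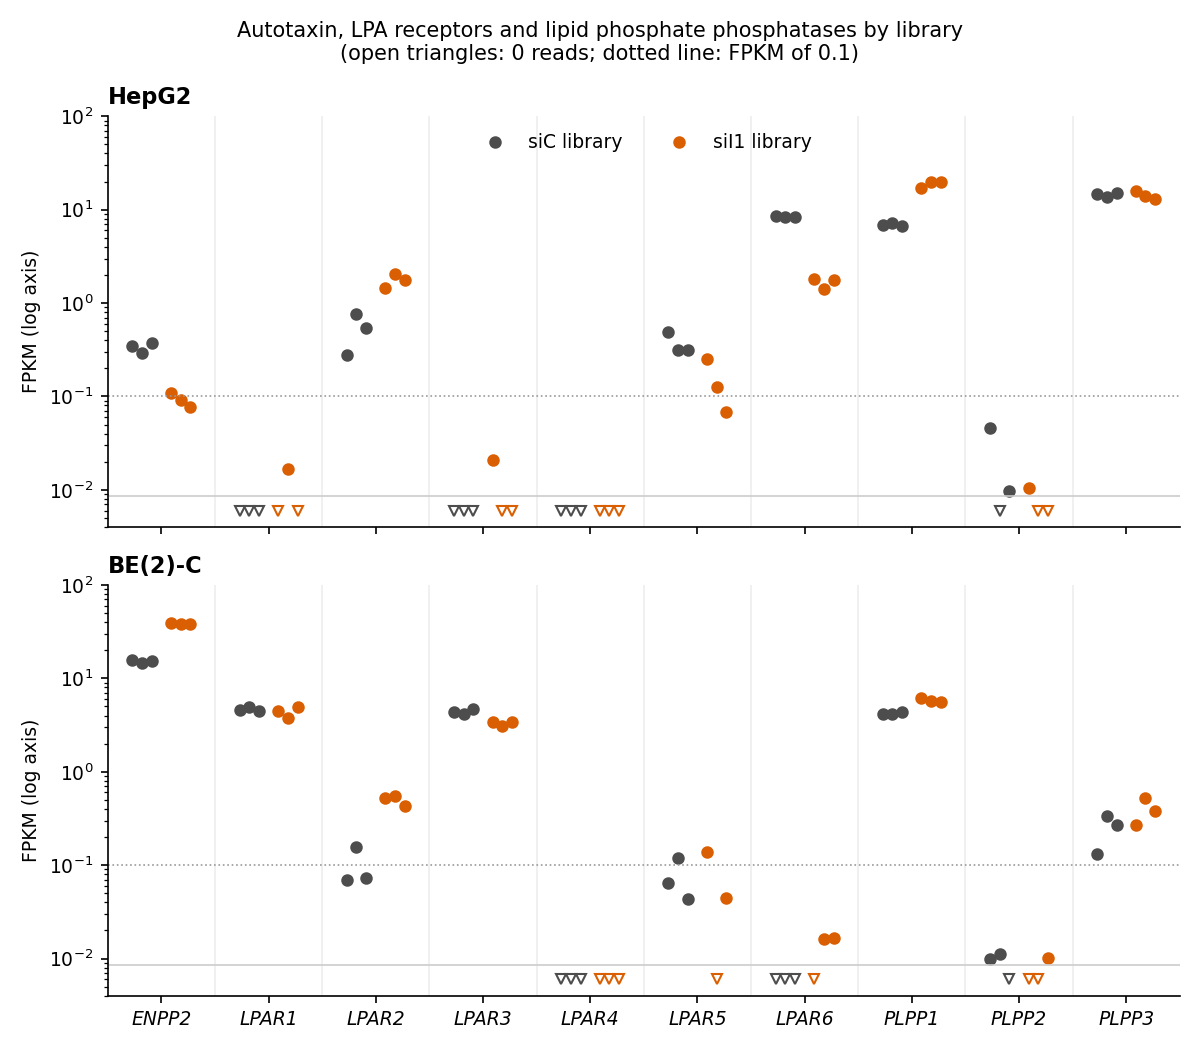
FPKM of each member in each library on a log axis, with HepG2 and BE(2)-C in separate panels and siC and siI1 libraries in separate colors, open triangles for 0 reads and a dotted line at 0.1 FPKM. ENPP2 sits below 0.4 FPKM in every HepG2 library and between 14.7 and 39.0 FPKM in BE(2)-C, and LPAR6 is at most 1 read per library in BE(2)-C.

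The 6 LPA receptors were present in different sets in both lines. In HepG2 with siC, LPAR6 was the most abundant, followed at a distance by LPAR2 and LPAR5, whose libraries overlapped. LPAR1 and LPAR3 each had 1 read in a single siI1 library of HepG2 and 0 reads in the other libraries. A count of 0 allows up to 3 reads, which is 0.0465 to 0.0540 FPKM for LPAR1 and 0.0545 to 0.0633 FPKM for LPAR3 in HepG2. LPAR1 and LPAR3 were the main receptors of BE(2)-C, at levels that overlapped with siC, and LPAR6 had 0 reads in 4 libraries and 1 read in the other 2. LPAR4 had 0 reads in all 12 libraries, which allows up to 0.0621 to 0.0752 FPKM. These limits, like any counting interval, cover counting error only.

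LPAR6, a receptor of the P2Y-like group that answers to LPA, was the main receptor gene of HepG2. In HepG2, LPAR6 (ENSG00000139679) stood at 8.58, 8.35 and 8.30 FPKM with siC and at 1.80, 1.42 and 1.77 FPKM with siI1. The siI1 libraries lay far below the siC libraries, with 90 to 106 reads against 495 to 579. The mean fell from 8.41 ± 0.148 to 1.67 ± 0.212 FPKM (SD, 3 libraries each), which is 5.05 times lower (log2 fold change -2.28, SE 0.11, limma adjusted p 1.6e-05). LPAR6 was not tested in BE(2)-C, since its levels there were at or under the limit of 3 reads in both groups, and the difference between the lines was not tested either under the filter.

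LPAR6 (chr13:48389567-48444704, minus strand) lies inside RB1, which runs on the opposite strand and shares 0 exon bases with it. RB1 was at 11.3 to 14.8 FPKM with siC and at 8.85 to 12.4 FPKM with siI1 in HepG2, where the groups overlapped (log2 fold change -0.37, SE 0.15, limma adjusted p 0.085). RB1 in BE(2)-C was at 11.1 to 12.9 FPKM with siC and at 13.7 to 15.2 FPKM with siI1, where the groups did not overlap (log2 fold change 0.27, SE 0.07, limma adjusted p 0.032). Both calls of RB1 changed under several settings. In HepG2 the limma adjusted p was 0.048 with equal sums of FPKM, 0.035 with the replicate block, 0.028 with voom, 0.044 without siC replicate 2 and 0.017 without siI1 replicate 1. For RB1 in BE(2)-C it was 0.081 with no mean-variance trend, and 0.056 to 0.11 without siC replicate 1 or 3 or any of the siI1 libraries. The strand setting of the read counting was not given in the sources used here, so reads of LPAR6 and of introns of RB1 cannot be told apart. BE(2)-C held RB1 at levels like those of HepG2 with at most 1 read of LPAR6 per library.

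LPAR2, a receptor that signals through several G proteins, was higher after knockdown in both lines. In HepG2, LPAR2 (ENSG00000064547) stood at 0.281, 0.763 and 0.546 FPKM with siC and at 1.44, 2.05 and 1.78 FPKM with siI1. All 3 siI1 libraries lay above all 3 siC libraries, with 58 to 89 reads against 13 to 31, and the siC libraries spread widely around their mean. The mean rose 3.32 times from 0.530 ± 0.242 to 1.76 ± 0.307 FPKM (log2 fold change 1.62, SE 0.32, limma adjusted p 0.0061).

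The BE(2)-C libraries had LPAR2 at 0.0701, 0.157 and 0.0720 FPKM with siC and at 0.521, 0.546 and 0.435 FPKM with siI1. The siC libraries held 3, 6 and 3 reads and the siI1 libraries 24, 23 and 18 reads, so all siI1 libraries lay higher, from a base close to the limit of detection. The ratio of the means was 5.02 (log2 fold change 1.61, SE 0.28, limma adjusted p 0.0064). LPAR2 passed the filter in BE(2)-C through 3 siI1 libraries and 1 siC library, and with no filter the limma adjusted p was 0.014, in a range of 0.00032 to 0.019 over the settings that kept all libraries and 0.0082 to 0.031 with 1 library left out. The change of LPAR2 in BE(2)-C minus that in HepG2 was -0.01 (SE 0.43, limma adjusted p 0.99), an estimate whose SE leaves room for a difference in either direction. Under the other settings this value went both ways, from -0.41 with a pseudocount of 1 (limma adjusted p 0.067) to 0.49 with a pseudocount of 0.01 (limma adjusted p 0.53), and from -0.28 to 0.31 with 1 library left out.

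LPAR3, a receptor with a preference for unsaturated LPA, was a main receptor of BE(2)-C. LPAR3 (ENSG00000171517) stood there at 4.36, 4.21 and 4.66 FPKM with siC and at 3.43, 3.09 and 3.37 FPKM with siI1. The siI1 libraries lay below the siC libraries, with 155 to 188 reads against 191 to 231. The mean fell from 4.41 ± 0.232 to 3.3 ± 0.180 FPKM, 1.34 times lower (log2 fold change -0.41, SE 0.08, limma adjusted p 0.01). LPAR3 was not tested in HepG2, nor was the difference between the lines.

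LPAR1, the most widely expressed LPA receptor in the nervous system, stood in BE(2)-C at 4.59, 4.90 and 4.49 FPKM with siC and at 4.51, 3.74 and 4.90 FPKM with siI1. The groups overlapped, and siI1 replicate 2 was the lowest library. The log2 fold change of LPAR1 was -0.09 (SE 0.11, limma adjusted p 0.57), and without siI1 replicate 2 it was 0.01 (limma adjusted p 0.93).

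LPAR5, a receptor that couples to G proteins like LPAR1, was present at a low level in HepG2, at 0.494, 0.315 and 0.312 FPKM with siC and at 0.250, 0.126 and 0.0689 FPKM with siI1. The siI1 libraries lay below the siC libraries, but with 3 to 11 reads against 14 to 25. The log2 fold change of LPAR5 was -0.98 (SE 0.36, limma adjusted p 0.065), which missed the threshold. It passed with voom on recovered reads (log2 fold change -1.41, limma adjusted p 0.023) and without siI1 replicate 1 (log2 fold change -1.26, limma adjusted p 0.028), in a range of 0.023 to 0.12 over the alternative settings other than leaving out a library. LPAR5 had passed the filter through 3 siC libraries and 2 siI1 libraries. LPAR5 in BE(2)-C held 2 to 5 reads with siC and 0 to 7 reads with siI1 and was not tested.

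The receptor genes were next compared as a group per length, which shows how the set was made up. In HepG2, the sum of the 6 receptors was 9.35, 9.43 and 9.15 FPKM with siC and 3.51, 3.62 and 3.62 FPKM with siI1. It was lower in all siI1 libraries, as it was under median centring (mean 9.02 against 3.70) and with equal sums of FPKM (mean 9.87 against 3.38). LPAR6 made up 91.7%, 88.6% and 90.6% of that sum with siC and 51.3%, 39.3% and 48.9% with siI1. LPAR2 made up 3.0%, 8.09% and 5.97% with siC and 41.0%, 56.7% and 49.2% with siI1. LPAR6 thus led in all siC libraries, and with siI1 LPAR6 led in replicate 1 and LPAR2 in replicates 2 and 3.

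The receptors of BE(2)-C summed to 9.09, 9.38 and 9.27 FPKM with siC and 8.60, 7.40 and 8.77 FPKM with siI1. The siI1 libraries lay lower as deposited and under median centring (mean 9.12 against 8.37). With equal sums of FPKM, however, the groups overlapped (mean 9.18 against 8.31). LPAR1 made up a mean of 50.4% with siC and 53.0% with siI1, LPAR3 47.7% and 40.1%, and LPAR2 1.07% and 6.13%. LPAR1 and LPAR3 together led in every BE(2)-C library, while LPAR2 had a larger share in all siI1 libraries than in any siC library.

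**Figure D2:**
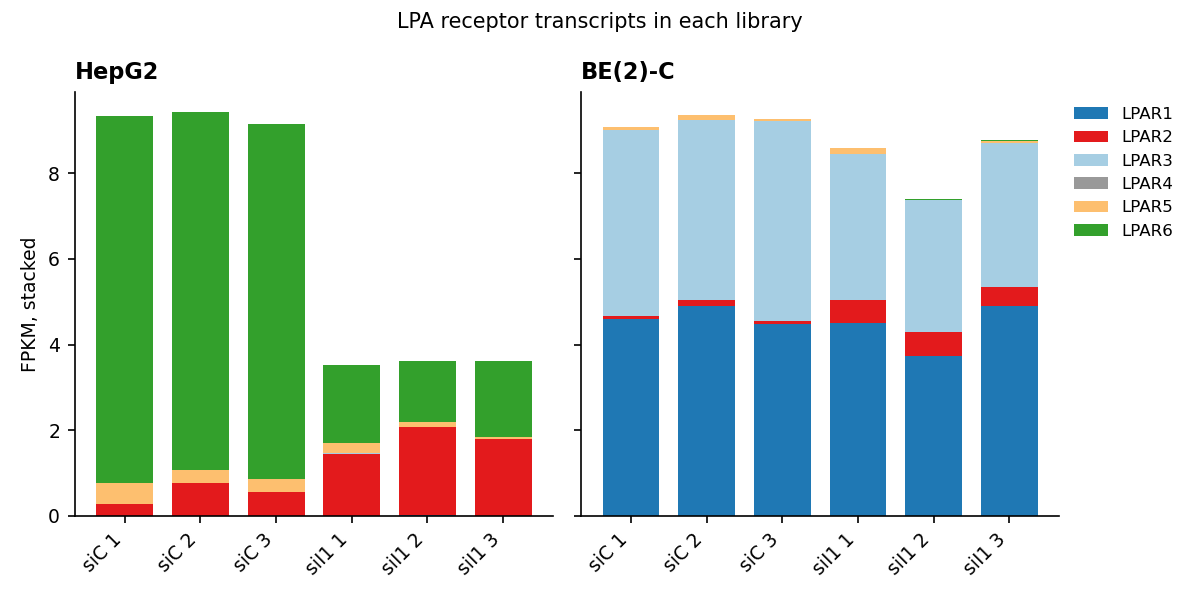
Stacked bars of the FPKM of the 6 LPA receptors in each of the 12 libraries, with 1 color per receptor and an axis that starts at 0. HepG2 bars go from 9.15 to 9.43 FPKM with siC to 3.51 to 3.62 FPKM with siI1 as LPAR6 drops, and BE(2)-C bars consist mainly of LPAR1 and LPAR3.

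Promoters are shown for the 3 receptors that were called in a line, LPAR2, LPAR3 and LPAR6, to set a receptor that rose in both lines beside those that fell in 1. RefSeq windows on build GRCh38.p14, from 250 bases before to 50 bases after a start site, were on hand for 8 of the 10 members, with 13 windows in all, and not for ENPP2 and PLPP1. The motifs searched on both strands were GGGCGG (GC box, in 45% of 35116 promoter windows of the same length), CCAAT (34.6%), CACGTG (7.26%), GGAATG (a TEAD motif, 14.0%) and TGANTCA (an AP-1 motif, 7.71%). Capitals mark the matches, and a match is a description of letters and not of a bound site. The windows, read 5′ to 3′ on the minus strand, are chr19:19628171-19628470 for LPAR2, chr1:84893157-84893456 for LPAR3 and chr13:48413064-48413363 for LPAR6.
LPAR2: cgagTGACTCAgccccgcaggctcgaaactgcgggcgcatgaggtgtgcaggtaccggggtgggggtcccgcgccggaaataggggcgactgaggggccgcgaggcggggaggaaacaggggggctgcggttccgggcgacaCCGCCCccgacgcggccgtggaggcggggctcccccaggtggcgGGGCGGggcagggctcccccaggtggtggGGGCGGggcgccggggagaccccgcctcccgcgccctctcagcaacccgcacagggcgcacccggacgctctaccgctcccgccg
LPAR3: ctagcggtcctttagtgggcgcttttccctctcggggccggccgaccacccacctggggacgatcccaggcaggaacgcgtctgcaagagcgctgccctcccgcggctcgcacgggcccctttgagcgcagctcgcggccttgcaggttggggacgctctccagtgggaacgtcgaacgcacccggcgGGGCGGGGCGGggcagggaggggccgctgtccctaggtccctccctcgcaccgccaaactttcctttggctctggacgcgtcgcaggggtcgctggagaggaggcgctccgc
LPAR6: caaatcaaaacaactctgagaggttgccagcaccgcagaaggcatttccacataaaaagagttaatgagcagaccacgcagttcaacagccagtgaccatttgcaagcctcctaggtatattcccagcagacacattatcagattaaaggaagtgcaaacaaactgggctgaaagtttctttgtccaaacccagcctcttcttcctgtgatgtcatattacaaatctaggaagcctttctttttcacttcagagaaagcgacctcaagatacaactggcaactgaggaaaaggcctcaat

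The LPAR2 window held 3 GC boxes, at -108 on the other strand and at -64 and -35, and 1 AP-1 motif at -246, in bases from the start site. Its G and C content was 77.7%, above that of 94.6% of the promoter windows, whose median was 58.7%. The LPAR3 window held 2 overlapping GC boxes at -62 and -57 with a G and C content of 71.3%. No motif searched was found in the LPAR6 window, whose G and C content was 43.3%, below the lower quartile of 47.0%. The LPAR6 window lies within the span of RB1.

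PLPP1, a membrane enzyme that removes the phosphate from LPA outside the cell, rose in both lines. In HepG2, PLPP1 (ENSG00000067113) stood at 6.84, 7.28 and 6.76 FPKM with siC and at 16.9, 20.0 and 19.6 FPKM with siI1. The siI1 libraries lay clear of the siC libraries, with 462 to 588 reads against 200 to 214. The mean rose 2.71 times from 6.96 ± 0.280 to 18.9 ± 1.67 FPKM (log2 fold change 1.42, SE 0.08, limma adjusted p 2.7e-05).

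The BE(2)-C libraries had PLPP1 at 4.15, 4.14 and 4.33 FPKM with siC and at 6.19, 5.75 and 5.64 FPKM with siI1. Again all siI1 libraries lay above all siC libraries, by a smaller step. The mean rose 1.39 times from 4.20 ± 0.107 to 5.86 ± 0.290 FPKM (log2 fold change 0.47, SE 0.07, limma adjusted p 0.0029). The change in BE(2)-C minus that in HepG2 was -0.95 (SE 0.10, limma adjusted p 3e-05), so PLPP1 rose more in HepG2. Among the members other than ENPP2, PLPP1 alone was called for this difference under the main settings, out of the 3 that were tested for it.

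PLPP1 (chr5:55424854-55534969, minus strand) overlaps MTREX on the opposite strand and shares 481 of its 1935 exon bases with it. In HepG2, MTREX went the other way than PLPP1, from 10.1 to 12.1 FPKM with siC to 6.46 to 9.30 FPKM with siI1 (log2 fold change -0.61, SE 0.15, limma adjusted p 0.015). MTREX in BE(2)-C rose with PLPP1, from 16.7 to 18.9 FPKM to 22.2 to 25.2 FPKM (log2 fold change 0.35, SE 0.07, limma adjusted p 0.012). Its part in the counts of PLPP1 was not tested.

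PLPP3, a phosphatase of the same kind, stood in HepG2 at 14.8, 13.6 and 15.0 FPKM with siC and at 15.8, 14.1 and 12.9 FPKM with siI1. The groups overlapped, with the highest and the lowest library both in the siI1 group. The log2 fold change of PLPP3 was -0.02 (SE 0.09, limma adjusted p 0.84), and it turned to 0.07 under median centring. PLPP3 in BE(2)-C stood at 0.132, 0.339 and 0.271 FPKM with siC and at 0.269, 0.522 and 0.381 FPKM with siI1, on 10 to 39 reads. The groups overlapped here too (log2 fold change 0.52, SE 0.34, limma adjusted p 0.31). This log2 fold change was 0.16 to 0.70 under the other settings and 0.25 to 0.71 with 1 library left out. The change in BE(2)-C minus that in HepG2 was 0.54 (SE 0.32, limma adjusted p 0.21). With libraries paired by number as a replicate block, this difference was called (limma adjusted p 0.029). PLPP3 is overlapped on its own strand by a protein-coding gene with no symbol, ENSG00000284686, which shares 576 of its 5272 exon bases and had no values in the tables of either line, so its part in the counts of PLPP3 was not tested.

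PLPP2 had at most 5 reads in any HepG2 library and at most 1 read in any BE(2)-C library, and it was not tested. The 3 phosphatases summed to a mean of 21.5 FPKM with siC and 33.2 FPKM with siI1 in HepG2, and PLPP1 made up 32.4% and 56.9% of these sums. In BE(2)-C the sums were 4.46 and 6.26 FPKM, and PLPP1 made up 94.3% and 93.7%. Both sums were higher in all siI1 libraries than in any siC library, also under median centring and with equal sums of FPKM.

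**Figure D3:**
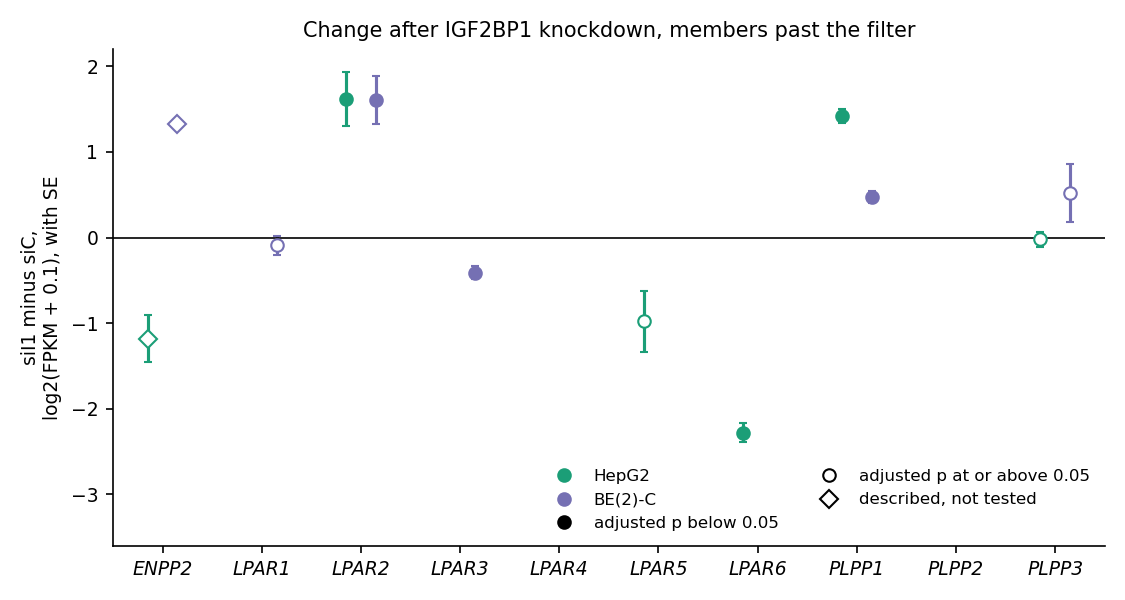
Log2 fold change of siI1 over siC for the members that passed the filter in HepG2 and BE(2)-C, as points with bars of 1 SE, filled where the limma adjusted p was below 0.05. LPAR2 and PLPP1 lie above 0 in both lines, ENPP2 at -1.18 in HepG2 and 1.33 in BE(2)-C was described and not tested, and PLPP3 in HepG2 lies at -0.02 and turned sign under median centring.

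Of the 10 members, 6 passed the filter in HepG2 and 6 in BE(2)-C. Without ENPP2, limma called 3 of the 5 in HepG2, where 44.8% of all 19436 genes tested were called. These were 2 higher members, against 21.9% of all genes, and 1 lower member, against 23.0%. In BE(2)-C, limma called 3 of 5, against 28.2% of all 18656 genes tested. Of these, 2 were higher, against 13.3% of all genes, and 1 was lower, against 14.8%. For the difference between the lines limma called 1 of 3, against 40.2% of 15362 genes. With so few members, and with LPAR2 in BE(2)-C at the filter level in only 1 siC library, nothing was read from these shares. The scaling bears on the split of all genes by direction. HepG2 had 4250 genes called higher and 4463 lower as deposited, 3211 and 5835 with equal sums of FPKM, which shifted the median of all genes by -0.15, and 5015 and 3693 under median centring. BE(2)-C had 2489 higher and 2763 lower as deposited, 2586 and 2605 with equal sums, and 2872 and 2390 under median centring. The difference between the lines had 3337 higher and 2843 lower as deposited, 4532 and 2039 with equal sums, which shifted its median by 0.17, and 2964 and 3228 under median centring. The called members had the same direction and the same side of the threshold under median centring as well as with equal sums of FPKM.

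The members do not share a place in the genome apart from chromosomes 1 and 19. LPAR3 (chr1:84811602-84893206) and PLPP3 (chr1:56494761-56645301) lie on the same chromosome, as do LPAR2 (chr19:19623655-19628930) and PLPP2 (chr19:281040-291403), in each case far apart and all on the minus strand. LPAR1 (chr9:110873263-111038470) and LPAR5 (chr12:6618835-6635960) are also on the minus strand, and LPAR4 (chrX:78747709-78758714) is on the plus strand. Of 20 neighbouring protein-coding genes, 11 were tested in HepG2, with 1 higher and 7 lower, against 21.9% higher and 23.0% lower of all genes. Under median centring 1 was higher and 3 were lower there, and with equal sums of FPKM 0 and 7. Leaving out 1 library gave 1 higher and 3 to 7 lower, with 3 lower without siC replicate 1, siC replicate 3 or siI1 replicate 3. The BE(2)-C tests covered 11 of them, with 1 higher and 0 lower, against 13.3% and 14.8% of all genes, and 1 to 4 higher and 0 lower over the other settings.

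Among the neighbours that overlap no member, the nearest to a called member was GMIP, at 0.5 kb from LPAR2. GMIP fell in HepG2 from 3.98 to 2.94 FPKM (log2 fold change -0.42, SE 0.12, limma adjusted p 0.029), where LPAR2 rose, and without siC replicate 1 or 3 or siI1 replicate 2 or 3 its limma adjusted p was 0.067 to 0.09. Median centring ended the HepG2 call of GMIP as well (log2 fold change -0.33, limma adjusted p 0.065). In BE(2)-C, GMIP rose from 2.78 to 3.67 FPKM (log2 fold change 0.39, SE 0.08, limma adjusted p 0.012). PRKAA2, next to PLPP3, fell in HepG2 from 7.98 to 4.51 FPKM (log2 fold change -0.82, SE 0.14, limma adjusted p 0.0028).

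The 3′ untranslated regions were searched for a match to the let-7 seed, CTACCTC, since IGF2BP1 is known to shield transcripts from let-7. None of the 10 members had this match in its longest annotated 3′ untranslated region, against 10.6% of 19226 genes. This says only that these letters are absent there. The regions of ENPP2 (435 bases), LPAR6 (344 bases), PLPP1 (352 bases) and PLPP2 (348 bases) were shorter than the lower quartile of all genes (473 bases).

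Other genes listed for making LPA or its precursors numbered 15. In HepG2, 11 were tested, with 3 higher and 6 lower and a median log2 fold change of -0.35, against 0.01 for all genes. In BE(2)-C, 8 were tested, with 2 higher and 1 lower and a median of 0.00, against 0.02 for all genes. Of all genes tested, 21.9% were higher and 23.0% lower in HepG2, and 13.3% and 14.8% in BE(2)-C. These shares over all genes apply to every list count in the text, marker lists included. GDE1, a glycerophosphodiesterase that is not known mainly for making LPA, fell from a mean of 36.2 ± 0.634 to 13.5 ± 0.810 FPKM in HepG2 (log2 fold change -1.42, SE 0.06, limma adjusted p 1e-05) and from 14.6 ± 0.959 to 10.0 ± 0.234 FPKM in BE(2)-C (log2 fold change -0.54, SE 0.06, limma adjusted p 0.0012). GPAM, which makes LPA for lipid synthesis in mitochondria, rose from 14.8 ± 1.58 to 51.6 ± 6.63 FPKM in HepG2 (log2 fold change 1.79, SE 0.11, limma adjusted p 4.4e-05) and from 5.32 ± 0.523 to 8.18 ± 0.115 FPKM in BE(2)-C (log2 fold change 0.62, SE 0.08, limma adjusted p 0.0021). GPAT3, an enzyme of the same step, fell from 13.1 ± 0.625 to 3.78 ± 0.355 FPKM in HepG2 (log2 fold change -1.77, SE 0.09, limma adjusted p 1.7e-05) and was not tested in BE(2)-C. GDPD1, a lysophospholipase D of the same family as GDE1 that makes LPA inside cells, fell in HepG2 from 3.85 to 2.51 FPKM (log2 fold change -0.59, limma adjusted p 0.0053) and rose in BE(2)-C from 5.51 to 7.32 FPKM (log2 fold change 0.40, limma adjusted p 0.0034). GDE1 and GPAM thus moved in the same direction in both lines, and GDPD1 in opposite directions.

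Genes that convert LPA, or belong to related phosphatases, made a further list of 15. In HepG2, 11 were tested, with 4 higher and 3 lower (median 0.11), and in BE(2)-C 14 were tested, with 4 higher and 5 lower (median 0.04). The shares of all genes were 21.9% higher and 23.0% lower in HepG2, and 13.3% and 14.8% in BE(2)-C. AGPAT2, which turns LPA into phosphatidic acid, rose from 10.3 ± 0.615 to 17.4 ± 2.43 FPKM in HepG2 (log2 fold change 0.74, limma adjusted p 0.0017) and fell from 20.9 ± 1.74 to 11 ± 1.26 FPKM in BE(2)-C (log2 fold change -0.92, limma adjusted p 0.001). PLPPR2, of a family related to the phosphatases, rose in HepG2 from 2.88 to 4.98 FPKM (log2 fold change 0.77, limma adjusted p 0.00066) and in BE(2)-C from 21.1 to 35.5 FPKM (log2 fold change 0.75, limma adjusted p 0.00031). PLPP4, a phosphatase with activity towards phosphatidic acid, fell in BE(2)-C from 5.22 to 1.98 FPKM (log2 fold change -1.34, limma adjusted p 0.00091) and had 0 reads in HepG2. PLPPR4, a neuronal gene of the PLPPR family, rose in BE(2)-C from 6.36 to 15.6 FPKM (log2 fold change 1.28, limma adjusted p 0.00011) and had 0 reads in HepG2. Of the 6 other ENPP genes, 3 were tested in HepG2, with 1 higher and 1 lower, and 1 in BE(2)-C, with none called by limma there. The higher call in HepG2, ENPP3, was lost with equal sums of FPKM (log2 fold change 0.43, limma adjusted p 0.056). The lower call, ENPP1, was lost under median centring (log2 fold change -0.08, limma adjusted p 0.26), with no mean-variance trend (0.099) and without siC replicate 1 or 3 or siI1 replicate 2 or 3 (0.084 to 0.13).

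Sphingosine-1-phosphate, a lipid signal like LPA, has its own receptors and enzymes, and PLPP enzymes act on it as well. Of 17 genes of this group and related receptors, 10 were tested in HepG2, with 4 higher and 2 lower (median 0.50), and 10 in BE(2)-C, with 3 higher and 1 lower (median -0.04). Set against this, 21.9% of all genes were higher and 23.0% lower in HepG2, and 13.3% and 14.8% in BE(2)-C. One of the calls in HepG2, S1PR1, passed the filter through its siI1 libraries alone (0.122 to 0.179 FPKM, at most 8 reads, against 0 to 0.0419 FPKM with siC; limma adjusted p 0.041), which favours a call in that direction. S1PR1, a receptor of this lipid, rose in BE(2)-C from 2.61 ± 0.260 to 7.78 ± 0.205 FPKM (log2 fold change 1.54, SE 0.09, limma adjusted p 0.00015). MFSD2B, an exporter of this lipid, rose in HepG2 from 0.530 ± 0.130 to 5.35 ± 0.0834 FPKM (log2 fold change 3.13, SE 0.17, limma adjusted p 2.6e-05). In BE(2)-C, MFSD2B was at 0.475 FPKM with siC and 0.316 FPKM with siI1, and the difference between the lines was -3.6 (SE 0.26, limma adjusted p 2.1e-06).

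Downstream of the receptors, 5 receptor partners were tested in each line, with 3 higher and 0 lower in HepG2 (median 0.51) and 1 higher and 2 lower in BE(2)-C (median -0.24). For this list and the next, the shares of all genes were 21.9% higher and 23.0% lower in HepG2, and 13.3% and 14.8% in BE(2)-C. SLC9A3R2, a scaffold that binds LPAR2, rose in HepG2 from 15.6 ± 0.556 to 35.4 ± 6.44 FPKM (log2 fold change 1.16, limma adjusted p 0.00047) and fell in BE(2)-C from 6.19 ± 0.790 to 4.08 ± 0.413 FPKM (log2 fold change -0.59, limma adjusted p 0.01). Of 24 G protein and effector genes, 19 were tested in HepG2, with 5 higher and 7 lower (median -0.14), and 23 in BE(2)-C, with 5 higher and 4 lower (median -0.06). GNAI2, a G protein subunit that LPA receptors use, rose in HepG2 from 22.6 ± 0.746 to 47.0 ± 3.80 FPKM (log2 fold change 1.05, limma adjusted p 5.4e-05). ROCK2, from the same list, fell in HepG2 from 46.5 ± 3.98 to 16.0 ± 3.33 FPKM (log2 fold change -1.55, limma adjusted p 0.00022). In BE(2)-C, RHOC fell from 15.1 ± 0.774 to 8.01 ± 0.514 FPKM (log2 fold change -0.91, limma adjusted p 0.00029).

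YAP and TEAD proteins switch on genes after LPA reaches its receptors, and EGR1 is an early gene of such signals. Across all genes tested, 21.9% were higher and 23.0% lower in HepG2, and 13.3% and 14.8% in BE(2)-C. Of 15 genes on the YAP and TEAD list, 15 were tested in HepG2, with 2 higher and 6 lower (median -0.13), and 10 in BE(2)-C, with 0 higher and 3 lower (median -0.23). Of these 3, TEAD4 (0.172 to 0.337 FPKM with siC, 0.0317 to 0.0934 FPKM with siI1) and AMOTL2 (0.175 to 0.248 against 0.0108 to 0.0709 FPKM) passed the filter through their siC libraries alone, which favours a call in that direction. Their calls were lost with the replicate block (limma adjusted p 0.094 and 0.068), with a pseudocount of 0.01 (0.058 and 0.064) and without any 1 of the siI1 libraries (0.071 to 0.13 and 0.061 to 0.11), and that of TEAD4 also with no filter (0.055) and with a pseudocount of 1 (0.052). YAP1 fell in HepG2 from 53.2 ± 3.48 to 10.0 ± 1.90 FPKM (log2 fold change -2.41, SE 0.13, limma adjusted p 2.5e-05), and in BE(2)-C it had at most 3 reads per library. EGR1 fell from 10.3 ± 0.752 to 0.682 ± 0.0622 FPKM in HepG2 (log2 fold change -3.73, SE 0.11, limma adjusted p 3.3e-06) and from 19.6 ± 2.34 to 8.97 ± 1.42 FPKM in BE(2)-C (log2 fold change -1.12, SE 0.13, limma adjusted p 0.0014). Of the 97 genes on these pathway lists, 59 were tested in both lines, and limma called 16 of them in both (27.1%, against 16.8% of all 15362 genes tested in both). These were 6 higher in both (10.2%, against 4.34% of all genes), 4 lower in both (6.78%, against 6.60%) and 6 in opposite directions (10.2%, against 5.82%). S1PR1 counts among the 6 higher in both, although it passed the filter in HepG2 through its siI1 libraries alone, which favours that count. The lists were chosen with earlier results known, and nothing particular to them was read from these shares. The list counts moved with the settings, including leaving out 1 library. HepG2 had 3 higher and 5 to 8 lower for LPA production, 3 to 5 and 2 to 4 for LPA conversion, 2 to 5 and 1 to 3 for sphingosine-1-phosphate, 2 to 3 and 0 to 1 for receptor partners, 4 to 6 and 4 to 9 for G proteins, and 2 and 5 to 11 for YAP and TEAD. BE(2)-C kept 2 and 1 for LPA production and 3 and 1 for sphingosine-1-phosphate, and had 2 to 5 and 3 to 6 for LPA conversion, 1 and 1 to 3 for receptor partners, 2 to 7 and 2 to 7 for G proteins, and 0 to 1 and 1 to 3 for YAP and TEAD.

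**Figure D4:**
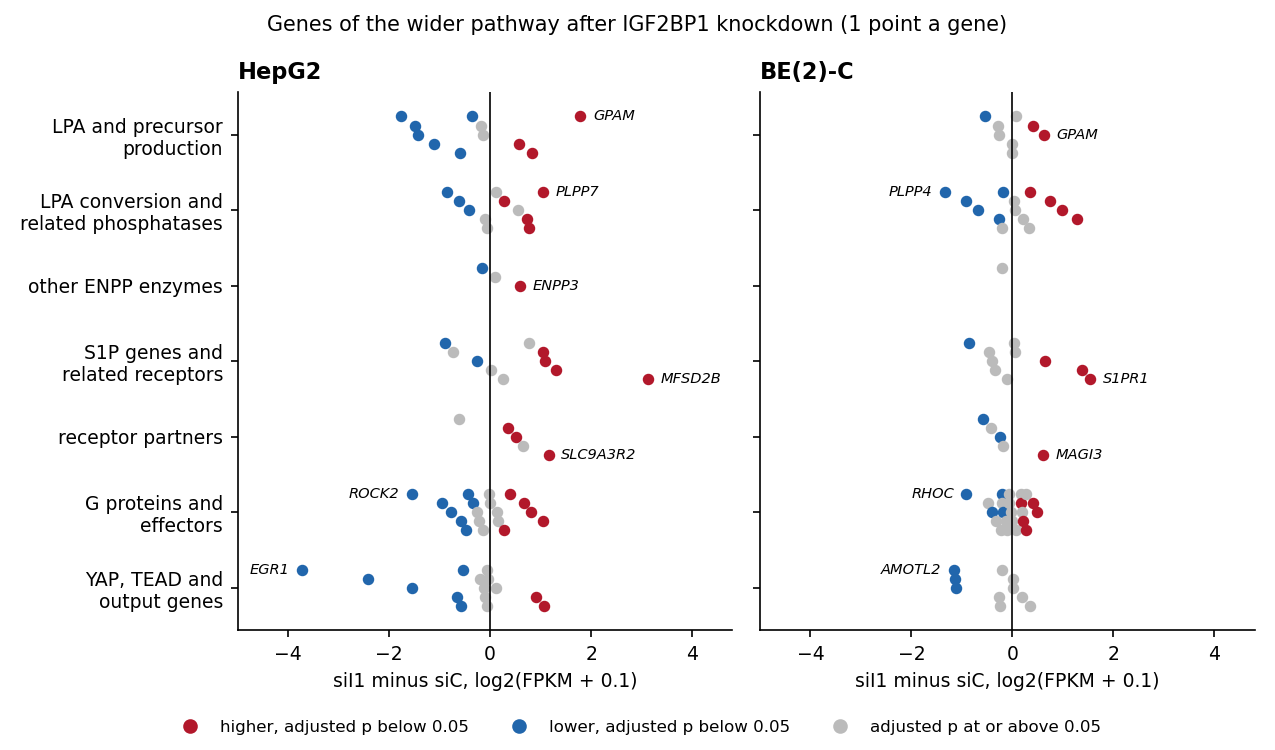
Log2 fold change of siI1 over siC for each tested gene of the 7 pathway lists in HepG2 and BE(2)-C, with red for higher, blue for lower and grey for an adjusted p at or above 0.05. EGR1 at -3.73 and MFSD2B at 3.13 in HepG2 lie farthest from 0 among the genes drawn.

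Markers of other cell types were read beside ENPP2, since autotaxin is also made by fibroblasts and endothelial cells. All 5 fibroblast genes were tested in BE(2)-C, with 2 higher and 0 lower, against 13.3% and 14.8% of all genes. Their summed level was 28.9, 25.1 and 29.3 FPKM with siC and 36.4, 37.7 and 35.8 FPKM with siI1. PDGFRB was the most abundant in all 6 libraries, and none of the 5 was at 0. DCN rose from 3.85 to 6.12 FPKM (log2 fold change 0.66) and LUM from 6.36 to 13.5 FPKM (log2 fold change 1.08), in the same libraries in which ENPP2 was higher. PDGFRB went from 16.6 to 15.4 FPKM (log2 fold change -0.10, limma adjusted p 0.46), and COL1A1 (0.698 to 1.09 FPKM, limma adjusted p 0.18) and COL3A1 (0.275 to 0.438 FPKM, limma adjusted p 0.46) were not called. Without siC replicate 2, limma called 2 of the 5 higher and 1 lower, and with voom on recovered reads 3 higher and 0 lower. The part of these genes in the ENPP2 result was not tested. In HepG2 the fibroblast sum was 0.657 to 1.57 FPKM, and of 3 genes tested, limma called none. The 3 endothelial genes summed to at most 0.155 FPKM in BE(2)-C, where none was tested, and to at most 0.237 FPKM in HepG2, where 1 was tested and limma called none. Of 4 leukocyte genes, PTPRC had 0 reads in all BE(2)-C libraries, and CD14 was called higher in HepG2 and lower in BE(2)-C, where the call was lost under some settings.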

How the data were processed

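Poly-A RNA of HepG2 and BE(2)-C cells was measured in 12 libraries, 3 for each siRNA and line. Per the submitters' processing notes, the authors clipped reads with cutadapt 1.14, aligned them to hg38 with HISAT2 2.1.0, handled them with SAMtools 1.5, counted them per gene with featureCounts 1.5.3 and tested them with edgeR 3.30.3. The authors deposited a table per line with the gene length in nt (other unit) and FPKM for each library, normalized within that line. The header names no unit, and FPKM was taken from the deposited values. The deposited FPKM times length gave whole read numbers for 100% of the nonzero values at a tolerance of 0.05 reads. Also deposited were the authors' log2 fold change, p-value and FDR of siI1 against siC, 6 columns over both tables, which were not used. The strand setting of the counting was not given in the sources used here.

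The tests used limma (version 3.58.1, on R version 4.3.3) on log2(FPKM + 0.1), two-sided, with a trend of the variance on the mean and Benjamini-Hochberg adjustment over every gene tested. A gene was tested where 3 or more of the 6 libraries of a line reached 0.1 FPKM. The difference between lines was the contrast of both changes over 12 libraries, for genes that passed in both. ENPP2 was described with no test. Values were handled with Python 3.11.15, pandas 2.3.3, NumPy 2.4.6 and, in R, data.table version 1.17.8, and drawn with Matplotlib 3.10.9. The code of the fit within each line was tested on simulated data under the main settings. The difference between the lines and the alternative settings were not simulated. Depth was 12852988 to 15721210 reads on genes per library, and intervals from reads cover counting error only.

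The members and lists were chosen with earlier results of these data known. The lists held genes of LPA production, LPA conversion, the ENPP family, sphingosine-1-phosphate, receptor partners, G proteins and YAP or TEAD output, and markers of hepatocytes, neuroblastoma, fibroblasts, endothelium and leukocytes. Named genes were the members, IGF2BP1, the called genes of each list with the 3 smallest p-values in each line (not all are reported), the 5 protein-coding genes most correlated with ENPP2 (1 of which is not reported here), and the neighbouring and overlapping genes. Genes of the lists named outside this rule, such as RHOA and PLPP7, were chosen after their values were seen. Gene positions came from GENCODE v44, which is newer than the Ensembl annotation of the authors on the same build, and promoter sequences from RefSeq. Alternatives covered the pseudocount, the filter, the trend, the scaling, a replicate block, voom and leaving out each library.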

Additional observations from a re-analysis of the deposited data

Results flagged for a closer look

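Limma called 6180 of 15362 genes (40.2%) for a difference between the cell lines in their change after knockdown. Leaving ENPP2 aside, PLPP1 was the only member called. The count over all genes includes ENPP2 in the fit, but no p-value is given for it. ENPP2 and list genes called in opposite directions are given beside it. Each value is the log2 fold change in BE(2)-C minus that in HepG2. For ENPP2 it was 2.51, with all siI1 libraries above the siC libraries in BE(2)-C and below them in HepG2. This difference is given as a description with no test, since ENPP2 was chosen for it. For PLPP1 it was -0.95 (SE 0.10, limma adjusted p 3e-05), with a rise in both lines that was larger in HepG2.

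Genes of the pathway and marker lists that limma called in opposite directions in the lines, and also for the difference itself, were AGPAT2 (-1.66, limma adjusted p 1.3e-05), SLC9A3R2 (-1.75, limma adjusted p 2.8e-05), GDPD1 (0.99, limma adjusted p 8.6e-05), PLPP7 (-1.32, limma adjusted p 0.001), SIVA1 (-0.75, limma adjusted p 0.0017), RHOA (-0.47, limma adjusted p 0.00028) and CD14 (-2.59). These genes were picked for opposite calls in the same libraries, so the adjusted p-values of the difference add no separate support. The single-line calls of PLPP7, SIVA1, RHOA and CD14 missed the threshold under some settings, among them leaving out certain single libraries. Groups of 3 libraries were not tested for single libraries that stand apart.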

How the results depend on the processing

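The called changes of LPAR6, PLPP1, LPAR2 and LPAR3 kept their direction and their side of the limma threshold under every alternative that gave them a value. LPAR6 in HepG2 ranged from -2.44 to -1.82, PLPP1 from 1.26 to 1.51 in HepG2 and 0.40 to 0.51 in BE(2)-C, LPAR2 from 0.86 to 1.84 in HepG2 and 0.45 to 2.30 in BE(2)-C, and LPAR3 in BE(2)-C from -0.42 to -0.33, libraries left out aside. Over all named genes, 1252 alternative log2 fold changes of 83 results gave 80 that lost and 8 that gained the call, and 12 that turned sign. For ENPP2, which had no call, 7 values were counted as moved. Among them was the difference between the lines with equal sums of FPKM, 2.63 against 2.51, a shift smaller than the SE of 0.14. Changes in the size of called values were not counted in this way. EGR1 in HepG2, for example, was -2.75 with a pseudocount of 1, against -3.73.

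Only values that were not called turned sign. PLPP3 in HepG2 was 0.07 under median centring and -0.10 to 0.04 with 1 library left out. LPAR1 in BE(2)-C was -0.18 to 0.01 with 1 library left out. LPAR2 for the difference between the lines was -0.41 with a pseudocount of 1, 0.49 with a pseudocount of 0.01, 0.15 with equal sums of FPKM, 0.46 with voom and -0.28 to 0.31 with 1 library left out. The cause was not tested.

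The number of genes called in BE(2)-C was 3431 to 4455 with 1 library left out, at 3487 without siI1 replicate 2 and 3431 without siI1 replicate 3, where fewer libraries were fitted. With no filter, 2 members were called for the difference between the lines, since LPAR6 was then tested (2.42, limma adjusted p 2e-05), although it was at or under 3 reads in BE(2)-C. With the replicate block, that is with libraries paired by number, 2 members were called for the difference, as PLPP3 (0.54) then had a limma adjusted p of 0.029, against 0.21 without it, 0.029 to 0.31 over the settings that kept all libraries and 0.085 to 0.44 with 1 left out. The libraries share only a number, and deviations from the group mean correlated at most at 0.0625 between libraries of the same number. The replicate block gave 8820 genes called in HepG2, 4672 in BE(2)-C and 6295 for the difference.

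Depth limits LPAR1, LPAR3 and PLPP2 in HepG2 and LPAR5, LPAR6 and PLPP2 in BE(2)-C, and LPAR4 in both, where single reads decide the level, and the sizes for ENPP2 in HepG2 and LPAR2 in BE(2)-C, which moved with the pseudocount. A filter of 1 FPKM left these last values, LPAR5 in HepG2 and PLPP3 in BE(2)-C untested, with the differences that rest on them.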

Other observations

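Among the protein-coding genes whose values followed those of ENPP2 most closely over the 12 libraries, after the mean of each line was subtracted, were FAM98A (r 0.986), CCDC68 (r 0.983), HUNK (r 0.983) and ITGB5 (r 0.979), out of 11083 genes compared. The libraries fall into siC and siI1 groups, so r reflects the group means in both lines and is a description. FAM98A went from a mean of 24.2 to 16.4 FPKM in HepG2 and from 21.2 to 31.7 FPKM in BE(2)-C. ITGB5 went from 34.1 to 21.8 FPKM in HepG2 and from 20.3 to 33.7 FPKM in BE(2)-C. CCDC68 went from 3.63 to 1.06 FPKM in HepG2 and from 0.0231 to 0.277 FPKM in BE(2)-C. It passed the filter in BE(2)-C through its siI1 libraries alone, which favours a likeness to ENPP2 there.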
